A study of Mus musculus with 48 samples.

Results

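Embryonic stem cells (ESCs) treated with V580 were compared between day 4 and day 6 of their induction into gonadal somatic cell-like cells (GSCLCs). The comparison took the 6 RNA-seq libraries labelled V580_D4 and V580_D6, 3 at each day, of the 48 samples in the series. V580 is vitamin C together with AM580, a synthetic agonist of the retinoic acid receptor RARα. The cells came from female mouse ESCs that had been kept in 2i and LIF on inactivated fibroblast feeders, were freed of feeders by their faster attachment and were then grown on fibronectin in ES medium without 2iL. By the protocol of the study, both days shared the medium and both compounds and differed in the time of treatment. No untreated culture of the same age thus stood beside them in this comparison. Whether both days came from the same ESC line and the same culture was not stated in the sources used here. The study took as GSCLCs the SSEA1-negative cells left once a magnetic sort had removed SSEA1-positive ones, SSEA1 being a surface antigen of ESCs and germ cells. Whether the sequenced cells of either day had passed that sort was not stated in the sources used here, and its part in the falls of pluripotency and germ cell genes was not tested. The question was what changed in the cells over these days of treatment, up to the day that the study carried forward and set against the gonad.

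Retinoic acid is made from retinol by dehydrogenases such as Rdh10 and Aldh1a2, binds RAR and RXR receptors on DNA and is broken down by Cyp26 enzymes, whose genes it switches on. The gonad arises beside the mesonephros from coelomic epithelium that expresses Wt1, Gata4, Emx2, Nr5a1 and Lhx9, and in the female Wnt4 and Rspo1 signal through β-catenin. Foxl2 marks the granulosa lineage, while Hedgehog ligands act on interstitial cells of the gonad and of many other organs.

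The levels are FPKM, fragments mapped to a gene scaled by the length of its transcript and by the depth of the library, as the authors deposited them. Read back from those values and the gene lengths, the 6 libraries held between 22238000 and 24744000 fragments. Of the 13682 genes in the table, 11512 reached 1 FPKM in at least 3 of 15 libraries and were tested with limma on log2(FPKM+1), so that differences of genes near 1 FPKM are understated. A gene was called where its Benjamini-Hochberg (BH) adjusted p was below 0.05 and its change at least 2-fold. The labels did not say that the 3 libraries of a day were separate cultures. SEs and p values rest on the spread between libraries of a group, pooled over the 15, and it may be technical. No library of the 6 stood apart. The root mean square difference in log2(FPKM+1) averaged 0.112 between libraries of day 4, 0.0971 between those of day 6 and 0.486 across the days. Between the gonadal cell libraries of E12.5, which are among the 15, it averaged 0.369. The pooled spread is therefore not that of the 6 libraries alone.

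Day 6 differed from day 4 in 585 genes, 5.08% of those tested, with 393 higher (3.41%) and 192 lower (1.67%). In all of these, the 3 libraries of a day did not overlap those of the other day, which also held for 72.8% of all tested genes. Without the fold threshold 5167 genes, 44.9%, passed the adjusted p, 2517 upward and 2650 downward, so that the 2-fold threshold did most of the selection. The median log2 fold change of all tested genes was -0.01. The 15 largest rises among genes of at least 5 FPKM were those of S100g, Ano1, Itm2a, Kdr, Pitx1, Hpgd, Wnt4, Cdh11, Igf1, Gli1, Wnt2b, Upk1b, Cxcl15, Igfbp3 and Hs3st3b1. The 15 largest falls were those of Dppa5a, Gm20767, Dnmt3l, Usp17la, Acta1, Zscan4f, Arg1, Rbmxl2, Arg2, Crabp2, Zscan4b, Utf1, Shisa3, Dppa4 and Cox7a1.

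**Figure D1:**
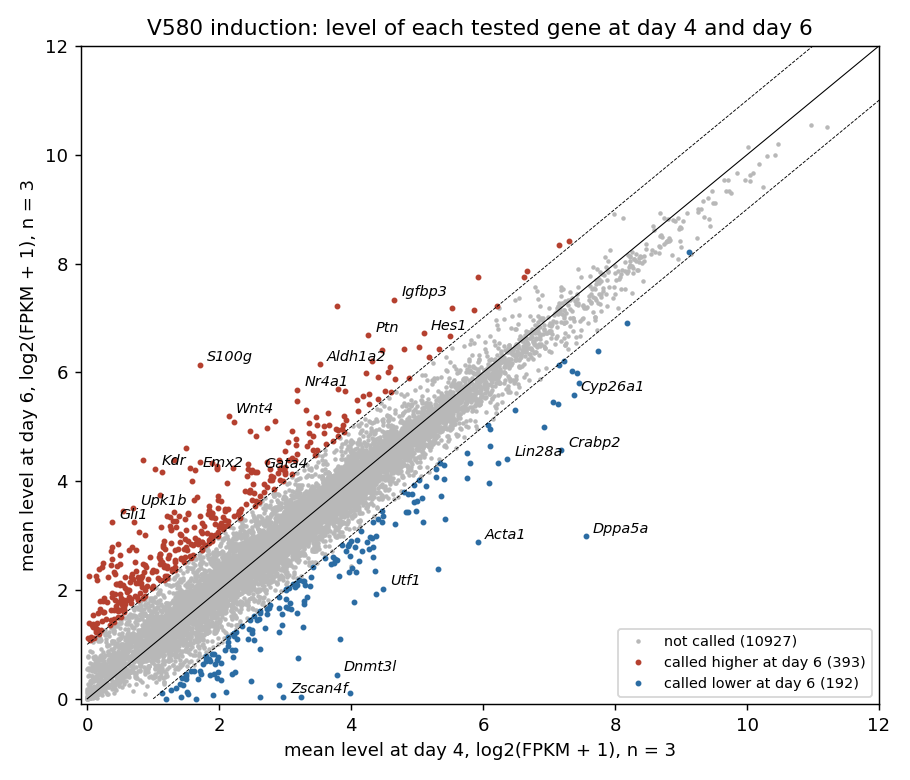
Mean level of each tested gene at day 4 (x axis) and day 6 (y axis), both log2(FPKM+1) over 3 libraries, with 1 point a gene. Red points are the 393 genes called higher at day 6 and blue points the 192 called lower, and the dashed lines mark a 2-fold change. Dppa5a lies farthest below the diagonal and S100g farthest above it.

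The largest rise was that of S100g, the calcium-binding protein calbindin-D9k. Its FPKM was 2.65, 2.61 and 1.56 at day 4 and 76.0, 60.1 and 71.7 at day 6 (log2 fold change 4.43 with an SE of 0.136, limma BH adjusted p 8.88e-12). Ano1, a calcium-activated chloride channel, went from 0.943, 0.764 and 0.675 FPKM to 19.996, 20.4 and 19.5, a 25.1-fold change of the means. Pitx1, a homeobox gene of the hindlimb and pituitary, went from 1.75, 2.02 and 1.73 FPKM to 23.5, 22.0 and 24.4. In each of these genes the lowest library of day 6 lay far above the highest of day 4. The E12.5 gonadal cell libraries (E12.5_GC) held S100g at a mean of 0.0546 FPKM and Pitx1 at 0.347 FPKM, against 11.7 FPKM for Ano1.

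Most genes of the core pluripotency list fell. Of its 10 tested genes, 8 fell and 1 rose, and the median log2 fold change was -1.73. Pou5f1, the gene of Oct4, had 3.99, 3.34 and 3.34 FPKM at day 4 and 0.371, 0.320 and 0.410 at day 6 (log2 fold change -1.73 with an SE of 0.131, limma BH adjusted p 7.94e-08). Lin28a, an RNA-binding protein that blocks let-7 maturation, had 80.2, 83.5 and 80.0 FPKM and then 20.6, 19.3 and 20.6. Utf1, a chromatin protein of ESCs, had 23.0, 22.7 and 18.6 FPKM and then 3.43, 2.79 and 2.94. The days did not overlap in any of the 3 genes, nor in 72.8% of all tested genes. Day 6 still held 20.2 FPKM of Lin28a on average. Sall4 (3.75-fold lower at day 6), Dnmt3b (3.44-fold) and Zfp42 (3.55-fold) also fell, whereas Sox2, at a mean of 7.86 FPKM and then 4.37, moved by a log2 fold change of -0.72 and stayed short of the threshold. The rising member was Tdh, the threonine dehydrogenase of ESC metabolism, from a mean of 1.24 to 4.48 FPKM. Nanog was too low to be tested, at 1.16, 0.811 and 1.19 FPKM and then 0.568, 0.602 and 0.430.

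The naive pluripotency list was split, with 5 of 12 tested genes lower, 2 higher and a median of -0.69. Dppa5a, an RNA-binding protein of naive ESCs, had the largest fall of all tested genes, from 202, 178 and 181 FPKM to 7.73, 6.61 and 6.43 (log2 fold change -4.57 with an SE of 0.263, limma BH adjusted p 4.21e-09). Its mean had been 1830 FPKM in the V580 libraries at 48 h. Klf4 went the other way, with 8.53, 9.19 and 10.4 FPKM at day 4 and 27.98, 23.4 and 24.5 at day 6, as did Tbx3, with a mean of 6.90 and then 17.4 FPKM. Both are also transcription factors of differentiated tissues, and E12.5_GC held 82.6 FPKM of Klf4. Dnmt3l, the cofactor of de novo DNA methylation, had 14.4, 12.9 and 10.9 FPKM and then 0.367, 0.346 and 0.351. Among 12 genes of the DNA methylation list 3 fell (Dnmt3l, Dnmt3b and Gadd45b) and 0 rose, while Dnmt1, the maintenance enzyme, kept a mean of 40.9 and then 42.2 FPKM.

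A separate set of genes, those of the 2-cell-like state that a few ESCs pass through, went to the floor. Zscan4f had 7.399, 6.13 and 7.03 FPKM at day 4 and 0, 0.0689 and 0 at day 6. Zscan4b (mean 5.12 and then 0.0242 FPKM) and Usp17la (8.46 and then 0.0218) went the same way, and these 3 were all the tested members of that list. They had been at 13.8, 9.57 and 9.11 FPKM at 48 h, and Zscan4f and Zscan4b were listed at 0 in every library of day 8, day 10 and E12.5_GC. Gm20767, an unnamed gene on chromosome 13, ran from 14.5, 14.5 and 15.2 FPKM to 0.0615, 0.0945 and 0.0881. The Zscan4 and Usp17l genes have near-identical copies, so the split of reads among the copies is uncertain. In bulk libraries, fewer cells with these transcripts and less of them per cell cannot be told apart.

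Of the germ cell list, Dazl and Dnd1 fell and 0 of 12 tested members rose. Dazl, an RNA-binding protein that licenses germ cells for meiosis, had 5.02, 4.70 and 5.65 FPKM at day 4 and 0.908, 0.895 and 0.878 at day 6. Dnd1, with a mean of 7.70 and then 3.30 FPKM, stood at -1.01 in log2 and fell short of 2-fold without replicate 1 or 2 of day 4 (both -0.98), without replicate 2 of day 6 (-0.9995), with upper quartile scaling (-0.9993) or with the trend of fold change on gene length removed (-0.96). Ddx4, with a mean of 9.28 and then 4.48 FPKM, and the meiotic cohesin gene Rec8, with 72.5 and then 39.7 FPKM, moved by log2 fold changes of -0.91 and -0.85.

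**Figure D2:**
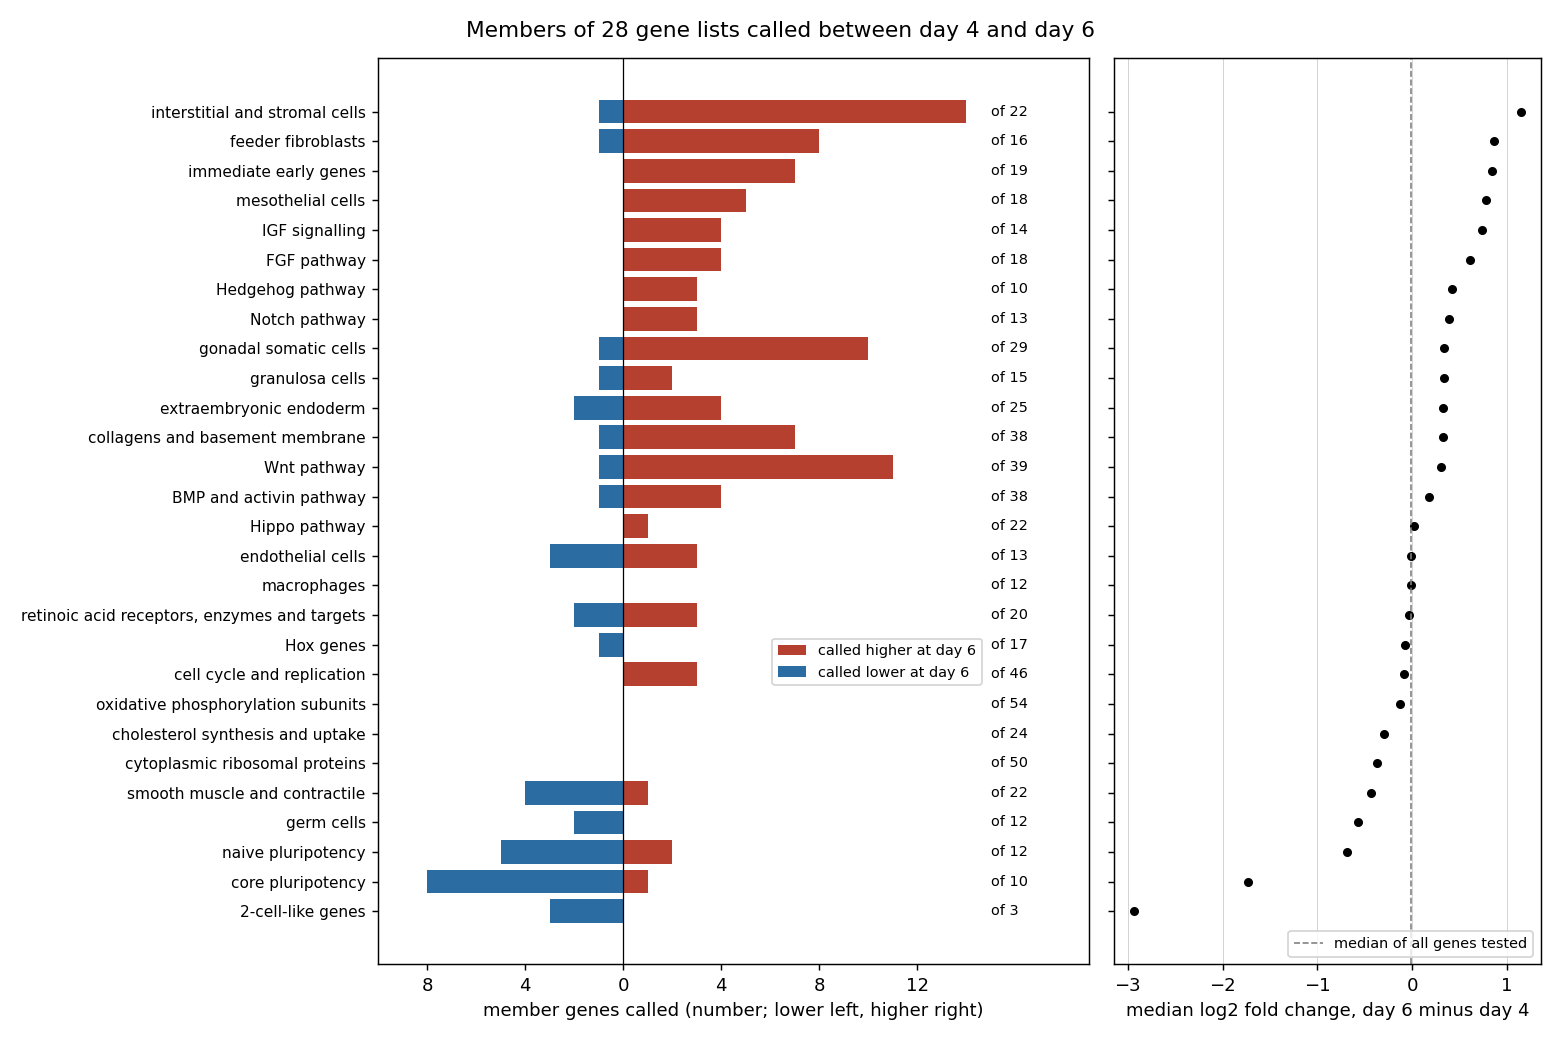
Calls between the days in 28 gene lists. Bars give the number of members called lower (blue, to the left) or higher (red, to the right) at day 6 beside the number tested, and points at the right give the median log2 fold change of the tested members. Interstitial and stromal cells top the plot with 14 of 22 members higher, and the core pluripotency list stands near the bottom with 8 of 10 lower.

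Of 20 tested retinoid genes, 3 rose, 2 fell and 15 were not called, with a median of -0.03, close to that of all genes. Aldh1a2, which makes retinoic acid, had 10.5, 10.4 and 10.6 FPKM at day 4 and 64.5, 75.4 and 70.0 at day 6 (log2 fold change 2.62 with an SE of 0.0623, limma BH adjusted p 6.31e-13). Rdh10, which makes its substrate retinal, had 9.91, 10.5 and 9.85 FPKM and then 35.6, 34.5 and 35.1. Both synthesis genes rose with no overlap between the days, and 72.8% of all tested genes likewise showed none. Crabp2, which carries retinoic acid to its receptor, had 148, 153 and 130 FPKM and then 20.9, 24.2 and 23.1 (log2 fold change -2.61 with an SE of 0.154, limma BH adjusted p 5.39e-09). Cyp26a1, which oxidises retinoic acid, had 155, 171 and 168 FPKM and then 50.6, 44.7 and 45.5 (log2 fold change -1.79 with an SE of 0.0615, limma BH adjusted p 2.15e-11). Both fell with no overlap between the days. Cyp26b1, the other Cyp26 gene in the table, had 66.8, 72.9 and 69.4 FPKM and then 36.3, 32.9 and 34.5, which at a log2 fold change of -0.99 lay just under the threshold.

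The receptor of the agonist, Rara, had 14.8, 15.5 and 13.8 FPKM and then 17.1, 17.7 and 16.99 (log2 fold change 0.22). Rarb, itself a target of retinoic acid, had a mean of 7.08 and then 6.81 FPKM, with overlapping libraries. Tgm2, the third retinoid gene to rise, is a transglutaminase that retinoic acid induces in many cells and had 10.4, 8.44 and 8.98 FPKM and then 27.9, 29.5 and 28.2. Among 17 tested Hox genes, whose 3' members answer to retinoic acid early, Hoxb5 fell 2.51-fold, from a mean of 21.2 to 8.47 FPKM, and 0 rose. That share called, 5.88%, was near the 5.08% of all tested genes.

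**Figure D3:**
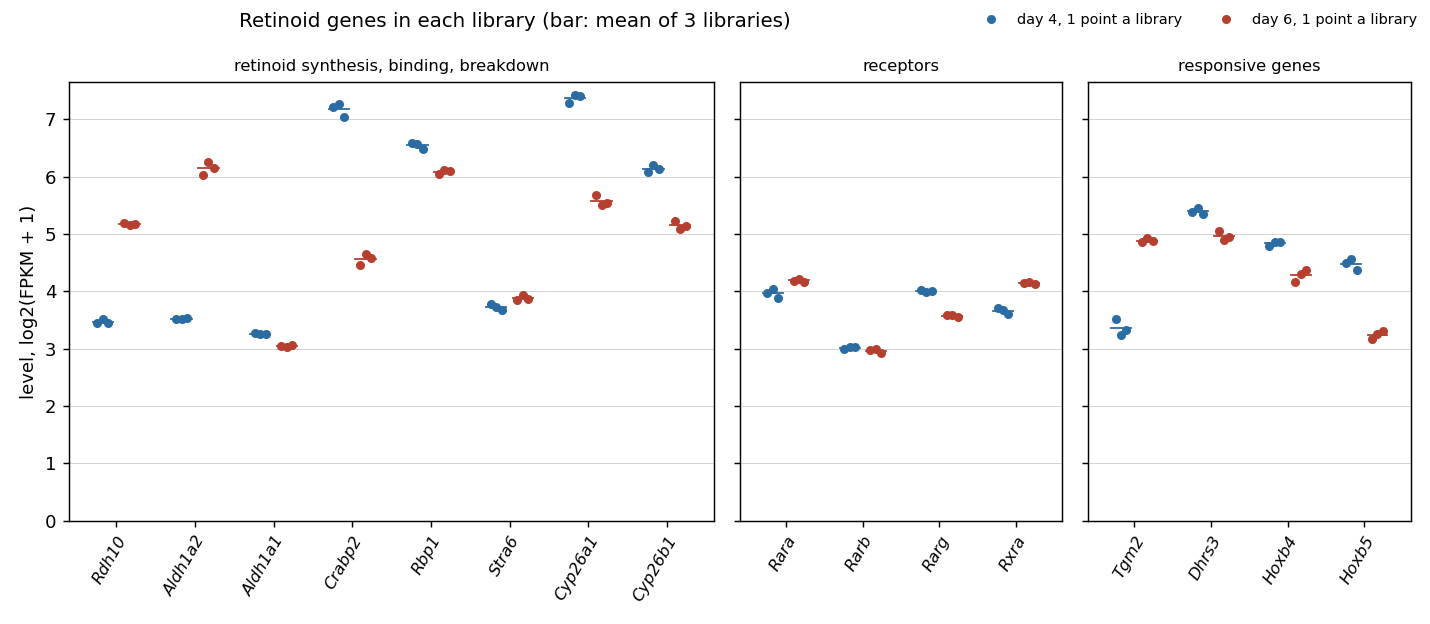
Level of retinoid genes in each library as log2(FPKM+1), in blue for day 4 and red for day 6, with a bar at the mean of 3 libraries. Aldh1a2, Rdh10 and Tgm2 lie higher at day 6, Crabp2, Cyp26a1 and Hoxb5 lie lower, and Rarb overlaps between the days.

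The promoter of Cyp26a1 is shown because the gene is the classic direct target of retinoic acid receptors and fell here under a receptor agonist. The bases run from 250 before to 50 after the transcript start at chr19:37697558-37697857 on the plus strand (RefSeq, GRCm38.p6). Capitals mark a direct repeat of a pair of receptor half-sites with 5 bases between them, which lies on the opposite strand and starts 32 bases before the start site.
Cyp26a1: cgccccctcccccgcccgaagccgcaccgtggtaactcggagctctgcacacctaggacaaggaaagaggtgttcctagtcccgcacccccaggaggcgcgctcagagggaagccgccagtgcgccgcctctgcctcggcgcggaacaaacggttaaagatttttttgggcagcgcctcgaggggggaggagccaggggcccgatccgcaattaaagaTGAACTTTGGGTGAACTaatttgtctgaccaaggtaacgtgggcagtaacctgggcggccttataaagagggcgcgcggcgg
This repeat was searched on both strands of the 9095 promoters that matched tested genes by symbol. It was found in 2 of them, or 0.022%, and in 26 of 27025 promoters of all genes. A match describes the letters and not the binding of a receptor.

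Genes of the smooth muscle and contractile list leaned down, with 4 of 22 tested members lower, 1 higher and a median of -0.43. Acta1, the skeletal muscle actin, had 63.8, 58.1 and 57.0 FPKM at day 4 and 6.83, 5.80 and 6.44 at day 6 (log2 fold change -3.04 with an SE of 0.166, limma BH adjusted p 2.47e-09). Actc1, the cardiac actin, had 21.2, 18.98 and 20.2 FPKM and then 9.63, 8.98 and 8.03 (log2 fold change -1.10, SE 0.301, p 0.0083). Tnnc1 and the cardiac factor Nkx2-5 fell as well, from means of 2.47 and 3.66 FPKM to 0.685 and 1.22. Their log2 fold changes of -1.04 and -1.06 did not reach 2-fold without replicate 3 of day 4 (Tnnc1, -0.97) or without replicate 1 or 2 (Nkx2-5, -0.98 and -0.99). With the gene length trend removed Actc1 (-0.98), Tnnc1 (-0.84) and Nkx2-5 (-0.93) all fell short of 2-fold. Actg2, the actin of visceral smooth muscle, rose instead, from 5.28, 4.96 and 4.21 FPKM to 18.6, 17.3 and 15.0. Acta2, the most abundant of these actins at a mean of 192 FPKM and then 119, was not called (log2 fold change -0.69).
The promoters of both striated muscle actins are shown since each holds a CArG box, the site of serum response factor (C C, 6 bases of A or T, G G), in capitals. Acta1 lies at chr8:123894726-123895025 and Actc1 at chr2:114052826-114053125, both on the minus strand and printed 5′ to 3′.
Acta1: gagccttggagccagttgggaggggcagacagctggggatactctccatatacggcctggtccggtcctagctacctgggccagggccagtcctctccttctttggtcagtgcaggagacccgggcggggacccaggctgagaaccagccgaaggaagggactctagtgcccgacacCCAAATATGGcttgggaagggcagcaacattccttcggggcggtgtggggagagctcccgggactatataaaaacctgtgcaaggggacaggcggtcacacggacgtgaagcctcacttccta
Actc1: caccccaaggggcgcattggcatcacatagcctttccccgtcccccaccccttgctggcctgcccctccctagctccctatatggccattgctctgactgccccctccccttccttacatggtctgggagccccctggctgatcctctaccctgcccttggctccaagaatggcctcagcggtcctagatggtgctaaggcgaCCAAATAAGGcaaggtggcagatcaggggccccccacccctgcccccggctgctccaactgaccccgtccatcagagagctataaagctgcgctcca
The pattern of the box, though not each sequence that fits it, is the same on both strands. It was found in 117 of 9095 promoters of tested genes (1.29%), in 6 of 142 promoters of genes called lower (4.23%) and in 7 of 267 of genes called higher (2.62%).

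Of 29 tested gonadal somatic genes 10 rose and 1 fell, with a median of 0.33. Gata4, a zinc-finger factor needed for the genital ridge, had 5.23, 4.75 and 4.84 FPKM at day 4 and 17.5, 16.0 and 17.5 at day 6 (log2 fold change 1.5999 with an SE of 0.0583, limma BH adjusted p 4.02e-11). Emx2, a homeobox gene of the urogenital epithelium, had 1.87, 2.17 and 2.26 FPKM and then 16.2, 18.8 and 16.96, an 8.25-fold change. Zfpm2, the Gata4 cofactor Fog2, had 0.180, 0.208 and 0.188 FPKM and then 2.45, 2.79 and 2.62. None of these genes overlapped between the days, nor did 72.8% of all tested genes. Amhr2, the receptor of anti-Müllerian hormone, rose 4.60-fold, Runx1, a factor of pre-granulosa cells, rose from a mean of 0.464 to 2.24 FPKM (log2 fold change 0.9965 with the gene length trend removed, under the threshold), and Nr2f1, Nr2f2, Pdgfra and Dcn, which mark the gonadal interstitium, were the other risers beside Wnt4. Wt1 had 23.7, 23.0 and 21.6 FPKM and then 42.9, 47.4 and 45.1, a 1.98-fold change of the means at a log2 fold change of 0.95, just under the threshold. Irx3, which fetal granulosa cells express, fell from 17.5, 18.2 and 15.2 FPKM to 5.58, 5.31 and 5.86, against 72.9 FPKM in E12.5_GC.

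The label of the cells was checked against the markers that define the gonad. Nr5a1, the master regulator of steroidogenic cells, had between 0.0106 and 0.0828 FPKM in the 6 libraries against a mean of 78.2 in E12.5_GC. Lhx9 had between 0.0176 and 0.166 FPKM against 35.7. Both transcripts were thus near the floor on both days, while E12.5_GC, whose cells were taken from female gonads at E12.5, held them in quantity. Foxl2, one of the genes by which the study followed its induction, had 1.42, 1.502 and 1.32 FPKM and then 3.01, 3.34 and 3.29. The days did not overlap, nor did they in 72.8% of all tested genes. The log2 fold change of Foxl2, 0.80 (SE 0.153, limma BH adjusted p 0.00062), was below the threshold because of the 1 FPKM added before the logarithm. With 0.1 FPKM added it was 1.13. Cd63, the surface protein by which the study sorted day 6 cells, had 50.5, 49.0 and 46.2 FPKM and then 54.1, 51.3 and 52.9 (log2 fold change 0.12, p 0.47). Of 15 tested granulosa genes, Wnt4 and Amhr2 rose, Irx3 fell, and Fst, Kitl and Inha each had log2 fold changes between -0.01 and 0.13.

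Wnt pathway genes were called more often upward, 11 of 39 against 1, with a median of 0.30. Wnt4 had 3.45, 3.25 and 3.54 FPKM at day 4 and 35.7, 37.0 and 34.1 at day 6 (log2 fold change 3.05 with an SE of 0.110, limma BH adjusted p 3.6e-11). Wnt2b had 3.69, 3.50 and 3.80 FPKM and then 30.4, 36.6 and 31.7, and Wnt5a had 1.66, 1.62 and 1.66 and then 7.16, 7.21 and 7.19. Wnt11 rose 2.61-fold, and Wnt6, at a mean of 44.3 FPKM the highest of the listed Wnt ligands at day 4, had 72.4 FPKM at day 6 and was not called. Among the called members were 4 genes that Wnt signalling is known to switch on, and 27 of the 39 were not called. Axin2, the standard feedback target, had 8.71, 9.15 and 9.30 FPKM and then 23.4, 25.0 and 23.5, Nkd1 rose 2.84-fold, Rnf43 5.81-fold and Lef1 6.06-fold. Inhibitors that bind Wnt proteins outside the cell were among the risers too, with Sfrp1 at a mean of 21.1 and then 84.0 FPKM and Frzb at 0.336 and then 2.82 FPKM. Of the receptors, Fzd4 rose 2.75-fold and Fzd8 fell 2.95-fold, while Ctnnb1, the gene of β-catenin, had 197 and then 218 FPKM.

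Of the Hedgehog genes, Gli1, Ptch1 and Ihh rose. Gli1, the standard readout of the pathway, had 0.281, 0.380 and 0.242 FPKM at day 4 and 8.44, 8.23 and 8.76 at day 6 (log2 fold change 2.87 with an SE of 0.0969, limma BH adjusted p 1.78e-11). Ptch1, receptor and feedback target, had 3.35, 3.35 and 3.38 FPKM and then 14.7, 14.6 and 14.5. Both genes separated the days with little spread within a day. The ligand Ihh went from 1.08, 1.10 and 0.766 FPKM to 3.48, 2.67 and 3.12, which left 3 of 10 tested members called higher and 0 lower, with a median of 0.42. The log2 fold change of Ihh, 1.05, was 0.96 without replicate 3 of day 4 and 0.98 without replicate 1 of day 6. Dhh, the ligand of Sertoli cells, was not tested, at means of 0.248 and 0.0324 FPKM. The coreceptor Cdon, with 32.2 and then 16.0 FPKM, and the transducers Smo, Gli2 and Gli3 were not called. Letters of the Gli site, GACCACCCA on either strand, were searched from 250 bases before to 50 after the start. They stood in 17 of 9095 promoters of tested genes (0.187%) and in 0 of the 267 matched to the 393 genes called higher. At so low a share a set of that size would seldom hold a match, so the 0 carries no information.

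**Figure D4:**
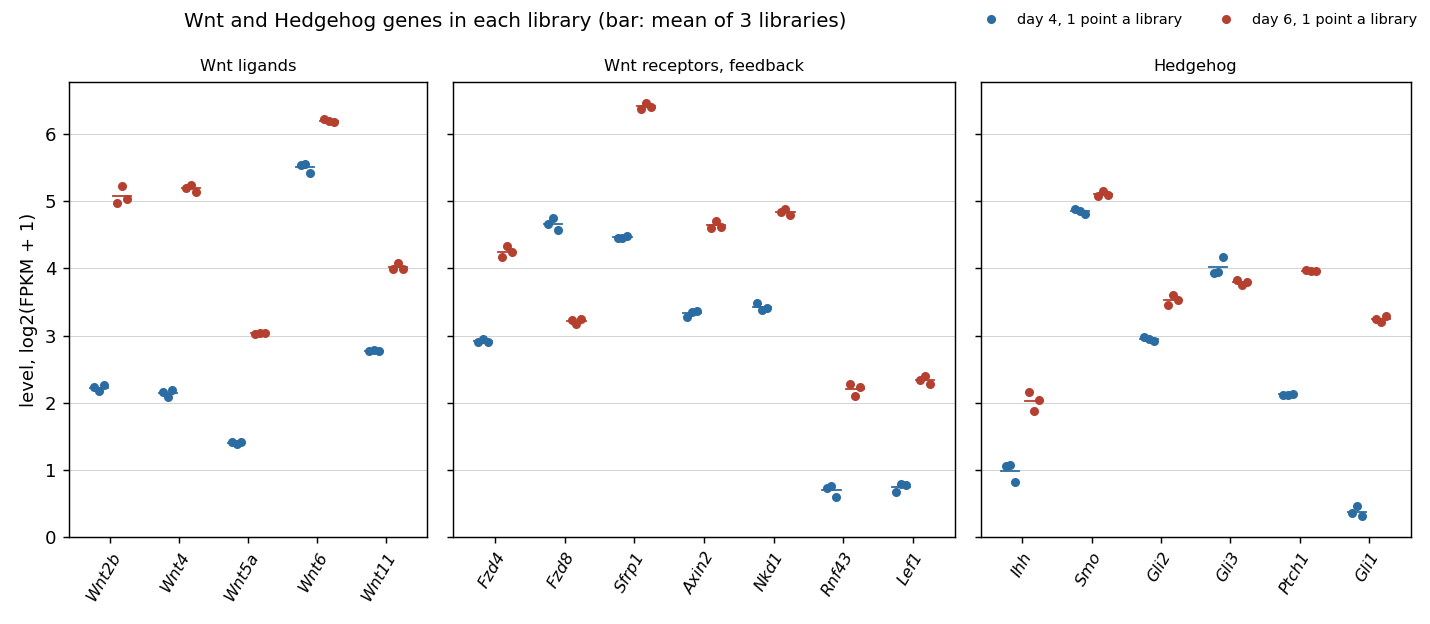
Level of Wnt and Hedgehog genes in each library as log2(FPKM+1), in blue for day 4 and red for day 6, with a bar at the mean of 3 libraries. Ligands and feedback targets lie higher at day 6 and Fzd8 lies lower, while Smo, Gli2 and Gli3 differ by less than 2-fold.

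IGF signalling had 4 of 14 tested members higher, 0 lower and a median of 0.73. Igf1 had 0.399, 0.457 and 0.526 FPKM at day 4 and 9.37, 10.5 and 9.86 at day 6, and Igfbp3, which binds IGFs in the medium, had 23.4, 23.7 and 25.4 and then 157, 163 and 163. The imprinted growth factor Igf2 rose as well, from a mean of 12.9 to 29.9 FPKM, as did Igfbp6. In the FGF list 4 of 18 rose (Fgf18, Etv5, Etv4 and Spry4) and 0 fell, the last 3 being targets of FGF signalling. In the Notch list 3 of 13 rose, and the target Hes1 had 32.6, 34.3 and 32.8 FPKM and then 114, 93.7 and 105. Its relatives Hey1 and Heyl stood close to the threshold, each at a log2 fold change of 1.02, and fell short of it without 1 library (Hey1 at 0.94 without replicate 2 of day 4, Heyl at 0.97 without replicate 1 of day 6 and 0.98 with the length trend removed). In the BMP and activin list Gdf6, Id4, Tgfb3 and Bambi rose and Tdgf1, the Nodal coreceptor, fell, of 38 tested. Of 22 tested Hippo genes 1, Axl, was called, upward, a share (4.55%) near the 5.08% of all tested genes, and the pathway's targets Cyr61, at 251 and then 482 FPKM, and Ctgf, at 16.7 and then 22.4 FPKM, were not.

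Genes of stroma formed the list with the most rises. Of 22 tested interstitial and stromal genes 14 rose and 1 fell, with a median of 1.15. Ptn, the heparin-binding growth factor pleiotrophin, had 16.9, 18.8 and 18.6 FPKM at day 4 and 99.6, 101 and 104 at day 6 (log2 fold change 2.42 with an SE of 0.0741, limma BH adjusted p 8.88e-12). Col3a1 had 8.06, 8.25 and 7.92 FPKM and then 43.8, 43.6 and 43.1, and Col6a1 had 3.11, 2.76 and 2.85 and then 18.6, 17.4 and 17.5. Lum, a proteoglycan of collagen fibrils, had 0.144, 0.116 and 0.136 FPKM and then 4.16, 4.19 and 4.28. The homeobox gene Prrx2 was the one member to fall, from a mean of 18.98 to 6.77 FPKM, while Prrx1 rose from 0.995 to 4.16. Of 38 tested collagens and basement membrane genes 7 rose and 1, Col8a1, fell. The abundant basement membrane genes Lamc1, Lama1, Nid2 and Hspg2 had log2 fold changes of -0.10, 0.12, -0.61 and -0.54 and were not called.

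Fibroblast feeders express much of the same set, and 10 of 18 genes of the feeder fibroblast list also stood on the stromal list. Of 16 tested feeder genes 8 rose and Lox fell, with a median of 0.86, and the summed level of the list was 145.8 to 162.1 FPKM at day 4 and 285.5 to 293.2 at day 6. Within it S100a4 was at or below a mean of 0.0238 FPKM at both days, Postn was at 0.994 and 0.985, and Ccl2 at 0.195 and 0.0769. The part of feeder cells in the stromal rise was not tested.

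Mesothelial genes, those of the lining of body cavities, had 5 of 18 tested members higher and 0 lower, with a median of 0.77. Upk3b, a membrane protein of mesothelium, had 22.5, 22.6 and 22.4 FPKM at day 4 and 59.6, 67.8 and 61.6 at day 6. Upk1b had 0.778, 0.600 and 0.459 FPKM and then 9.05, 12.1 and 9.81, and the zinc-finger factor Bnc1 rose 4.93-fold. Msln and Aldh1a2 completed the list of risers. Cdh1, the epithelial cadherin, fell from 228, 207 and 205 FPKM to 88.0, 77.6 and 83.5, while Cdh2, the mesenchymal one, rose from a mean of 6.39 to 16.7 FPKM. The list of epithelial junctions and keratins did not move as a set. Of its 28 tested genes 2 rose and 1 fell (10.7%, against 5.08% of all tested genes), with a median of 0.002. Keratins of simple epithelia stayed abundant, with Krt8 at a mean of 511 and then 315 FPKM and Krt18 at 602 and then 356, both short of 2-fold.

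Endothelial genes split by member. Kdr, the VEGF receptor that early mesoderm also expresses, had 1.06, 0.989 and 1.03 FPKM at day 4 and 16.8, 18.5 and 17.8 at day 6 (log2 fold change 3.20 with an SE of 0.134, limma BH adjusted p 1.56e-10). Flt1 rose 5.26-fold, and Cdh5 rose from 0.199, 0.144 and 0.208 FPKM to 3.24, 2.28 and 1.93. Tie1 fell from 3.27, 3.63 and 3.05 FPKM to 0.0625, 0.137 and 0.0597, and Flt4 and Eng fell as well, with Eng so close to the threshold that it did not reach 2-fold without replicate 2 of day 4 (-0.97 in log2), replicate 2 of day 6 (-0.9989) or replicate 3 of day 6 (-0.97), nor under TMM (-0.99) or upper quartile scaling (-0.99). The defining genes Pecam1, Tek, Emcn and Vwf stayed below 0.2 FPKM on average at both days, so the 13 tested members did not move as a set (3 higher, 3 lower, median -0.01).

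Extraembryonic endoderm shares many factors with the gonad and was checked for that reason. Of 25 tested members 4 rose, among them Gata4, Gata6 and Pdgfra, and 2, Apoe and Lrp2, fell, Lrp2 at a log2 fold change of -1.02 that was -0.95 without replicate 1 of day 4 and -0.98 without replicate 3. Cited1, the other riser, had 2.95, 2.70 and 3.09 FPKM and then 19.7, 16.9 and 18.6. Sox17, which defines that lineage, had 7.01, 6.07 and 5.73 FPKM and then 6.54, 5.83 and 6.13, with overlapping libraries. Gata2, of trophoblast, blood and genital ridge, rose 5.40-fold to a mean of 33.6 FPKM. Of 12 tested macrophage genes 0 were called in either direction. Of the 14 in the table, 13 averaged below 1 FPKM on both days. With 1 FPKM added such genes cannot reach 2-fold, so this count does not describe a change.

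Immediate early genes, which answer to serum and stress within minutes, had 7 of 19 tested members higher, 0 lower and a median of 0.84. Fos had 155, 158 and 156 FPKM at day 4 and 370, 298 and 347 at day 6, and Nr4a1 had 7.90, 8.05 and 8.37 and then 55.1, 45.2 and 50.3. Egr2 had 1.32, 1.27 and 1.13 FPKM and then 6.96, 5.92 and 6.63. The second library of day 6 was the lowest of its day in each of these genes, and the summed level of the list ran from 2045 to 2519 FPKM at day 6 against 1150 to 1164 at day 4. How long the cells were handled at harvest was not stated in the sources used here, and its part in these values was not tested.

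Of 46 tested cell cycle genes, 3 rose and 0 fell (6.52%, against 5.08% of all tested genes), with a median of -0.08. By the adjusted p alone 7 were higher and 19 lower, where 21.9% and 23.0% of all tested genes were. Ccnd2, a D-type cyclin, had 4.67, 4.28 and 4.66 FPKM and then 30.4, 28.9 and 28.8, Ccnd1 rose 3.43-fold and Mycn 2.10-fold. Mki67, a marker of cycling cells, had 25.4 and then 25.2 FPKM, and the mitotic genes Plk1 and Aurka had log2 fold changes of -0.65 and -0.70. Cytoplasmic ribosomal protein genes held a median of -0.37 with 0 of 50 called, and 19 passed the adjusted p alone, all downward. Those genes are short (their median is 1800 bases, that of the tested genes 4440), and the log2 fold change rose with gene length across 11478 genes (Spearman rho 0.21), from a median of -0.14 in the shortest eighth to 0.10 in the longest. With that trend removed, an alternative chosen after it was seen, the ribosomal median was -0.28 and 550 genes were called, 512 of them among the 585. Oxidative phosphorylation subunits (0 of 54 called, median -0.13) and cholesterol synthesis genes (0 of 24, median -0.30) held no call either. By the adjusted p alone 8 and 14 of them were lower and 0 and 1 higher. The lower share of the subunits was below the 23.0% of all tested genes, and that of the cholesterol genes above it.

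The X chromosome was looked at because female ESCs carry a pair of active X chromosomes and silence one as they differentiate. The mean log2(FPKM+1) of X-linked genes minus that of autosomal genes was -0.152, -0.150 and -0.125 in the libraries of day 4 and -0.0644, -0.0585 and -0.0552 at day 6. The days did not overlap (exact permutation p 0.1, two-sided, the smallest that 3 against 3 allows). The median log2 fold change of 388 X-linked genes was 0.0431, against -0.0117 for 11091 autosomal genes. Over single autosomes it ranged from -0.0592 to 0.0384, so that the X chromosome lay just above the highest of them. Of the 388 X-linked genes 14 were called higher and 9 lower, near the shares of all tested genes (3.41% higher and 1.67% lower). Xist and Tsix were not analysed here.

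Set beside the other times, the genes that changed between day 4 and day 6 had different courses. The neighbouring contrasts share the libraries of day 4 or day 6, so levels are given and no likeness is tested. From 48 h through day 4, 6, 8 and 10, Crabp2 averaged 15.7, 144, 22.7, 10.8 and 14.1 FPKM and Acta1 11.79, 59.6, 6.35, 6.21 and 5.57 FPKM, so that both were highest at day 4. Gli1 was highest at day 6, with 0.990, 0.301, 8.48, 5.86 and 3.49 FPKM, as was Aldh1a2, with 1.28, 10.5, 70.0, 46.8 and 27.97 FPKM and 90.0 in E12.5_GC. Wnt4 went on to 61.3 FPKM at day 8 and 78.2 at day 10, against 100 in E12.5_GC, and Gata4 to 29.97 and 46.1, against 144. Col3a1 passed the gonadal level of 73.7 FPKM, with 143 at day 8 and 401 at day 10. Cyp26a1 stayed far above the 0.0392 FPKM of E12.5_GC throughout, with 121, 165, 46.9, 65.1 and 68.7 FPKM in the same order.

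**Figure D5:**
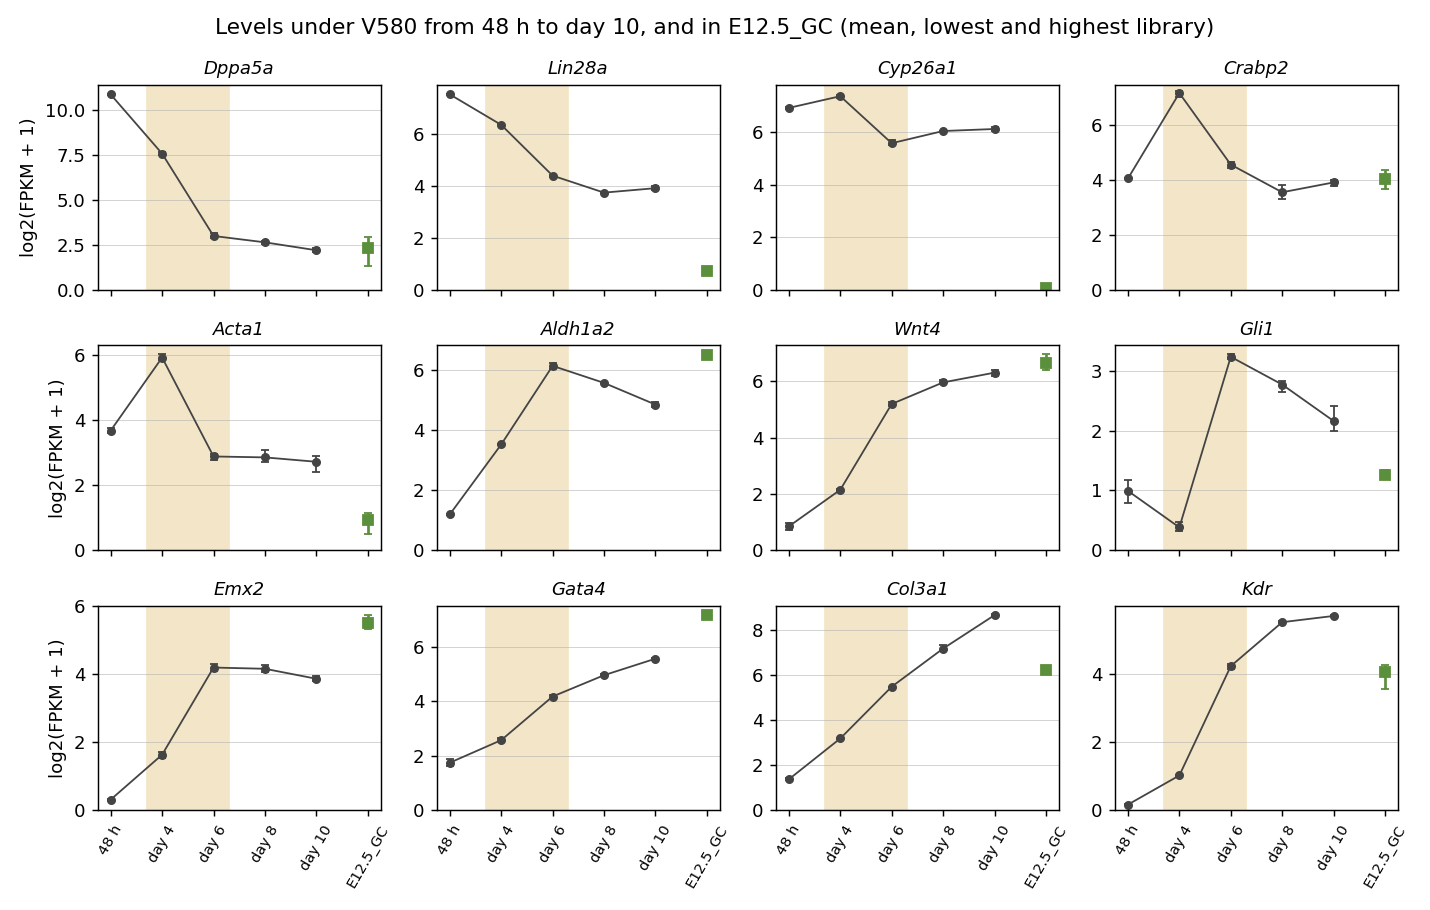
Level of 12 genes under V580 at 48 h (2 libraries), day 4, day 6, day 8 and day 10 (3 libraries each) and in E12.5_GC (square, 3 libraries), as log2(FPKM+1) of the mean with whiskers to the lowest and highest library. The shaded band spans day 4 to day 6. Crabp2 and Acta1 are highest at day 4, Gli1 and Aldh1a2 are highest among the V580 times at day 6, and Gata4, Wnt4, Col3a1 and Kdr keep climbing to day 10.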

How the data were processed

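RNA was taken from V580-treated cells at day 4 and day 6, 3 libraries each, and sequenced as poly-A selected libraries. The authors deposited FPKM per gene symbol, a unit for which the sources used here name no tool. The submitters' processing notes list Trim Galore, FastQC, HISAT2, SAMtools, featureCounts and RSEM, and the build mm10, without their roles. Gene lengths, of another deposited table (unit: bases), gave back whole fragments: between 96.6% and 97.2% of values under 100 fragments in the 6 libraries lay within 0.05 of a whole number. Another 24 columns of sample values in these tables, of other treatments or not matched to a label, were not used here.

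Genes with at least 1 FPKM in at least 3 of 15 libraries (V580 day 4, 6, 8 and 10 and E12.5_GC) were tested with limma 3.58.1 in R 4.3.3 on log2(FPKM+1), in one model with a mean-variance trend and without a replicate term. Calls needed a Benjamini-Hochberg adjusted p below 0.05 and 2-fold. The procedure was run on simulated data with the same spread in every library and with changes only in genes well above 1 FPKM. That run does not bear on genes near 1 FPKM or on the wider spread of E12.5_GC. Replicate numbers were not taken as pairs of libraries.

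Genes named were the 15 largest rises and falls among called genes of at least 5 FPKM with no overlap, up to 6 called members a list with its standard markers, and Gata4, Foxl2, Nanog, Pou5f1, Cd63, Xist and Tsix. Other members named for their values were chosen after these were seen. The comparison and its lists were chosen with earlier results of these data known. A few list members are not reported here and were left out of the counts and medians of their lists. Promoters are RefSeq sequences of GRCm38.p6.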

Additional observations from a re-analysis of the deposited data

How the results depend on the processing

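Of the 585 genes called, at least 576 were called again under TMM or upper quartile scaling, with totals of 581 and 587. A model of 6 or 12 libraries, another or no filter on low values, or no mean-variance trend gave 585 again. Those settings leave the log2 fold change of each gene as it is and act on the p values. As the 2-fold threshold did most of the selection, their counts are little test of the calls. Without the fold threshold 5167 genes passed (2517 higher, 2650 lower, 452 of them list members against 132 with it). Adding 0.1 FPKM before the logarithm gave 1054 (710 higher, 344 lower), and adding 0.5 gave 784. Testing against a 2-fold change with limma's treat left 254 (178 higher, 76 lower, 68 list members), and limma-voom on the fragments read back, chosen after seeing the data, called 1165 (793 higher, 372 lower). Leaving out each library in turn gave 569 to 595 genes (388 to 400 higher, 179 to 197 lower), 130 to 136 list members. X-linked minus autosomal medians were 0.055 in log2 and 0.071 both under voom and with the gene length trend removed. With a replicate block, which also leaves each fold change as it is, the count was 585 in the model of 12 libraries and 586 in that of 6. Correlations of same-numbered libraries were 0.0666, 0.0045 and 0.0579, and those of differently numbered ones lay between -0.0976 and 0.0377. All were small, so the numbers are not taken as pairs, though a weak pairing cannot be told from these values. The 148 genes followed one by one were the 15 largest rises and falls, the called members of the lists chosen with the design, and Gata4, Foxl2, Cd63 and Pou5f1. Nearly all were thus picked for their change in the main fit. That 0 of them changed direction in any of these alternatives is therefore little test. When 1 library was left out, 10 fell under 2-fold (Cd24a, Dnd1, Lrp2, Nkx2-5, Eng, Hey1, Ihh, L1td1, Tnnc1 and Heyl). With the length trend removed 7 did so (Actc1, Adm, Runx1, Dnd1, Heyl, Nkx2-5 and Tnnc1), Eng under both scalings, Dnd1 under upper quartile scaling and 64 under treat, Adm missed the adjusted p under voom, and the cause was not tested. The depth limits genes near the floor, such as Nr5a1, Lhx9 and the Zscan4 genes at day 6.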

Other observations

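Some groups outside the lists chosen with the design moved, and both of the following lists were put together after their values were seen, so that their counts describe them only. Of 13 tested genes of antigen presentation 5 fell and 0 rose, with a median of -0.79. H2-K1, a class I heavy chain, had 52.8, 50.9 and 54.9 FPKM at day 4 and 17.4, 14.6 and 15.0 at day 6, and Tapbp, which loads peptides on class I molecules, had 29.1, 27.3 and 25.7 and then 10.5, 9.05 and 10.0. Cd74, the invariant chain of class II, fell from a mean of 8.64 to 1.51 FPKM. B2m, the light chain of class I, overlapped between the days, at a mean of 82.9 and then 81.8 FPKM.

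Of the 4 nuclear factor I genes, transcription factors of many differentiating tissues, 3 rose. Nfib had 1.45, 1.34 and 1.69 FPKM at day 4 and 9.74, 10.0 and 9.74 at day 6, Nfia rose from a mean of 0.411 to 4.56 FPKM and Nfic from 3.38 to 10.2. Nfix, with 1.88 and then 4.71 FPKM, stood at a log2 fold change of 0.99. Among glycolysis genes Ldhb rose 3.16-fold, from a mean of 26.9 to 84.9 FPKM, and the glucose transporter Slc2a3 fell 3.33-fold, from 139 to 41.7 FPKM, of 21 tested. Both arginases fell, Arg1 from a mean of 38.8 to 4.21 FPKM and Arg2 from 6.48 to 0.194. Tfrc, the transferrin receptor, rose from 16.0 to 44.2 FPKM. Gapdh, often used as a reference gene, had 2.77, 16.4 and 25.8 FPKM at day 4 and 3.10, 2.72 and 7.52 at day 6, with no call (limma BH adjusted p 0.316). It has many near-identical processed copies, and how reads that map to several copies were counted is not given in the sources used here, so these values are uncertain and are no measure of its expression.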
